A study of Mus musculus with 2 samples.

Results

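The genes described here encode 2 ubiquitin-like modifiers, ISG15 and FAT10 (gene symbol Ubd). They also encode some, not all, of the enzymes that attach these modifiers to proteins or take them off. Further enzymes and partners are described below. The genes were chosen by name, with earlier results of these data known, as Isg15, Ubd, Uba7, Uba6, Ube2l6, Herc6 and Usp18. Every probe set of the array annotated to them was taken. That gave 7 genes and 16 probe sets of 45037 on the array without controls. Of the 7 genes, 6 had a probe set annotated to them alone, among 18193 such genes. Isg15 had 1 probe set, which is annotated jointly to Isg15 and to Gm9706, a pseudogene in RefSeq, so which of them it measures cannot be told apart.

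The study compared 2 primary cultures of mouse RPE (retinal pigment epithelium, the pigmented layer that supports the photoreceptors) on oligonucleotide arrays. One culture was untreated, and the other was kept for 24 h with 100 U/ml of interferon gamma (IFNg), a cytokine secreted by activated T cells and NK cells. Both were grown in medium with 20% fetal bovine serum, were moved to serum-free medium overnight before RNA was taken, and were described by the submitters as 95% cytokeratin-positive at 14 days. The labels give no strain, age, animal number or genotype, and do not say how the serum-free step overlapped with the cytokine. Each group was 1 array, so there is no replicate spread and no p-value, and "higher" or "lower" describes these 2 arrays only. In bulk RNA, fewer cells of a type and less RNA per cell cannot be told apart.

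ISG15 and FAT10 are small proteins, each built of a pair of ubiquitin-like domains, that are joined to other proteins through their carboxyl terminus. As with ubiquitin, an E1 enzyme activates the modifier, an E2 carries it and an E3 ligase helps place it on a target. ISG15 is best known as an antiviral product of interferon-treated cells. FAT10, which is induced by IFNg and tumour necrosis factor, marks its targets for the proteasome.

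RefSeq promoter windows (GRCm38.p6, 250 bases before to 50 bases after the start) were found for 5 of the 7 genes. The windows of the modifiers Isg15 and Ubd and of the activating enzyme Uba7 are shown because each holds letters of the interferon regulatory factor (IRF) binding core. Capitals mark matches on either strand to AANNGAAA, the IRF core, and to the interferon-stimulated response element, searched as a pair of GAAA runs with 2 bases of any kind between them, which contains that core. The Isg15 window lies at chr4:156200769-156201068 on the minus strand, the Ubd window at chr17:37193642-37193941 on the plus strand and the Uba7 window at chr9:107975317-107975616 on the plus strand.
Isg15: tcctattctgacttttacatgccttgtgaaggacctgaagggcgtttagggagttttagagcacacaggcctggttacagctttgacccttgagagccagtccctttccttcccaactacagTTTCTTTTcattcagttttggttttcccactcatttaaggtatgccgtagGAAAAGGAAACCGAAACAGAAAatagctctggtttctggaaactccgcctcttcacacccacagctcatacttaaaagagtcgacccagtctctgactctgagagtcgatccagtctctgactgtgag
Ubd: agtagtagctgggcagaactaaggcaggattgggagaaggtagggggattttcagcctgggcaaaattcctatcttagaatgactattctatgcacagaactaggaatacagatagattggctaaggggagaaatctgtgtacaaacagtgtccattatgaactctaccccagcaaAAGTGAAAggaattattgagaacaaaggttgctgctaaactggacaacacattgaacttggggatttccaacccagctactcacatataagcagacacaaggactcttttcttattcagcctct
Uba7: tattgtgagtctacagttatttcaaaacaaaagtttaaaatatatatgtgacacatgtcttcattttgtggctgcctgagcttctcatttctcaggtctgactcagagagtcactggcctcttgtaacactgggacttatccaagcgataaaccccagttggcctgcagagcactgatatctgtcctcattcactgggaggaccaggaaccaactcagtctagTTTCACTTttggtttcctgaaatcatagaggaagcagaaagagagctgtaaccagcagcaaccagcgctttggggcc

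The Isg15 window held 3 overlapping response element matches, which together run from base -78 to base -57 before the start, and 4 matches to the IRF core. Of the latter, 1 lay outside the elements, on the opposite strand from base -128 to base -121. In the Ubd window the IRF core occurred once, from base -74 to base -67, and in the Uba7 window once, on the opposite strand from base -27 to base -20. The windows of Ube2l6 (chr2:84798578-84798877, plus strand) and Herc6 (chr6:57580742-57581041, plus strand) held neither motif. None of the 5 windows held TTCNNNGAA, the gamma-activated sequence (GAS). Of 32851 RefSeq promoter windows of this length, 3.44% held the response element, 23.9% the IRF core and 8.3% the GAS letters. A match is a run of letters and not a measured binding site.

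All 6 genes with a probe set of their own were at least 2-fold higher on the IFNg array, where 8.82% of the 12743 genes above the floor passed that mark. The floor is a signal of 20.4, the pooled median of both arrays, to which dimmer signals were raised, and each gene took its value from its brightest probe set. A gene or probe set counts as above the floor if it cleared it on 1 array or both. Ubd cleared it only on the IFNg array, so it enters this count and those at 4-fold and 8-fold through that array. The fold ranged from 2.64 for Uba6 to at least 32.6 for Ubd. At 4-fold the number was 4 of 6, beside 1.25% of all genes, and at 8-fold it was 2 of 6, beside 0.471%. The median log2 ratio of the 6 genes was 2.46, and that of all genes above the floor was -0.12. Counting probe sets, 11 of the 13 that name 1 gene and lay above the floor were at least 2-fold higher, beside 9.36% of 22273 such probe sets. The other 2 lay within 2-fold. Among the 11, the probe set of Ubd and 2 of Herc6 cleared the floor only with IFNg.

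**Figure D1:**
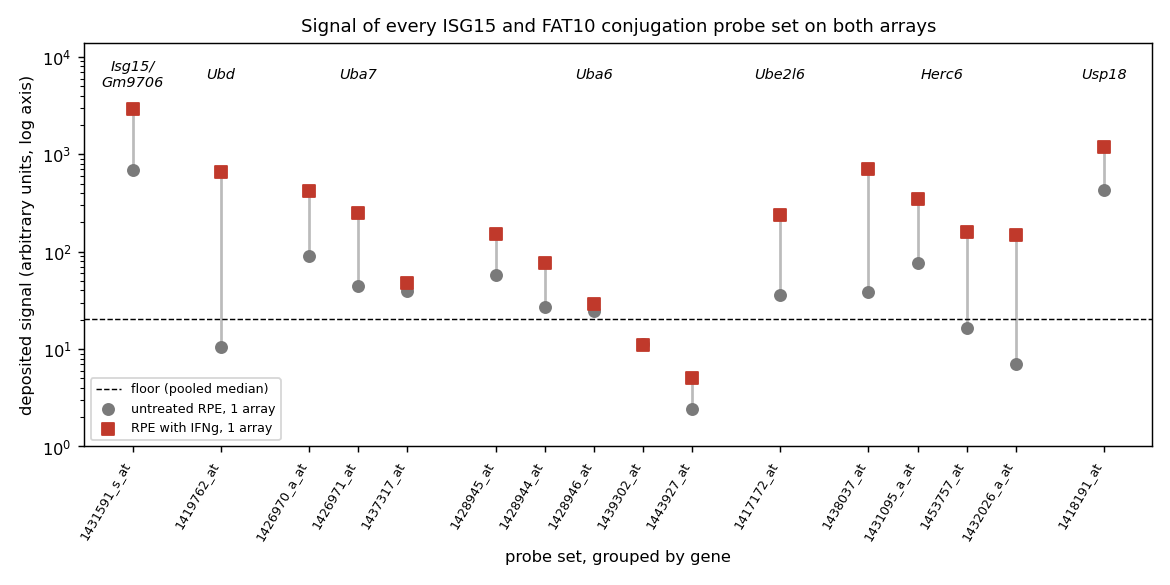
Deposited signal (arbitrary units, log axis) of the 16 probe sets, grouped by gene, on the untreated array (circles) and the IFNg array (squares), with the floor of 20.4 as a dashed line. The IFNg array is higher for every probe set that clears the floor, by little for the dimmest probe sets of Uba7 and Uba6, and 2 Uba6 probe sets stay under the floor on both arrays.

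Of the modifiers, Ubd had signals of 10.4 in the untreated culture and 665.6 with IFNg. The first lies under the floor, so the difference is a bound of at least 32.6-fold (log2 ratio at least 5.03). When the floor was raised to the 75th percentile of both arrays, a signal of 86.6, the bound became log2 2.94.

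The probe set shared by Isg15 and Gm9706 had signals of 691.0 and 2920.5, a 4.23-fold difference (log2 ratio 2.08). Both arrays were far above the floor, so unlike Ubd this transcript was measured in the untreated culture. Of 10441 genes that cleared the floor on each array, 116 had a higher log2 ratio than this probe set.

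Of the activating enzymes, Uba7 is the E1 of ISG15, and Uba6 is an E1 that serves both FAT10 and ubiquitin. The brightest Uba7 probe set had signals of 90.9 and 417.9, a 4.60-fold difference (log2 ratio 2.20). A second one, at 44.9 and 249.5, was 5.56-fold higher. Another was dim, at 39.5 and 48.0, and differed 1.22-fold (log2 ratio 0.28). Uba7 was thus past 2-fold higher with IFNg by 2 of its 3 probe sets, and the dim one showed little difference.

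Uba6 had the lowest ratio of the 6 genes. Its brightest probe set had signals of 58.0 and 152.9, a 2.64-fold difference (log2 ratio 1.40), and a second one, at 27.0 and 76.1, differed 2.82-fold. Another lay close to the floor on both arrays, at 24.4 and 29.3, with a log2 ratio of 0.26. The remaining 2 were under the floor on both arrays, at 11.3 and 10.9 and at 2.4 and 5.1, and give no ratio. With the floor of 86.6, above the untreated signal, Uba6 was no longer past 2-fold (log2 ratio at least 0.82).

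Ube2l6, the E2 that carries ISG15, had a single probe set, with signals of 36.2 and 240.0, a 6.63-fold difference (log2 ratio 2.73). The untreated value was dim, at under 2 times the floor, and with the floor of 86.6 the ratio became a bound of log2 1.47. Its promoter window was one of the 2 with no IRF core, which says only that these letters are not in that window.

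Herc6 is the main ISG15 ligase of mice, in the place that HERC5 has in humans. It was at least 2-fold higher by all 4 of its probe sets. The brightest had signals of 38.7 and 707.7, an 18.3-fold difference (log2 ratio 4.19), which ranked 20 among those 10441 genes. A further one, brighter in the untreated culture at 75.8, reached 344.6 with IFNg and differed 4.55-fold. The last 2 were under the floor without IFNg, at 16.4 and 7.1, and reached 160.0 and 148.6, which gives bounds of at least 7.84-fold and 7.28-fold. All 4 had the same direction. The 2 with both arrays above the floor stood at log2 4.19 and 2.18, farther apart than the SD of 0.44 among probe sets that share a gene, taken over 4419 genes. At the floor of 20.4 the mean over the 4 was log2 3.05, itself a lower bound since 2 of them are. With the floor of 86.6 the ratio of the brightest became a bound of log2 3.03.

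Usp18 is the protease that removes ISG15 from its targets, and it also binds the type I interferon receptor chain encoded by Ifnar2 and dampens its signal. Its single probe set had signals of 427.0 and 1187.7, a 2.78-fold difference (log2 ratio 1.48). This transcript was well above the floor without IFNg, as was that of the Isg15 probe set. Its log2 ratio kept between 1.40 and 1.62 under every processing alternative tried. Ifnar2, at 918.2 and 887.6, had a log2 ratio of -0.049.

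By log2 ratio, the order among the 6 genes was Ubd, Herc6, Ube2l6, Uba7, Usp18 and Uba6, and the probe set of Isg15 and Gm9706 fell between Uba7 and Usp18. Among the 10441 genes, Ube2l6 ranked 58, Uba7 98, Usp18 373 and Uba6 441. Usp18 and Uba6 were closer than the SD of 0.44 among probe sets of a gene, as were Uba7 and the Isg15 probe set, so their order is not settled. Ube2l6 and Uba7 were that close too without probe sets of shared sequence or transcripts (2.73 and 2.47), and with the floor of 86.6 Ube2l6 (at least 1.47) and Ubd (at least 2.94) are bounds that fix no order. The place of Herc6 depends on its probe set, since the one at 2.18 would put it beside Uba7. The SD of 0.44 is that of single probe-set ratios and holds no spread between cultures. Pairs farther apart than it are therefore not settled in order either.

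**Figure D2:**
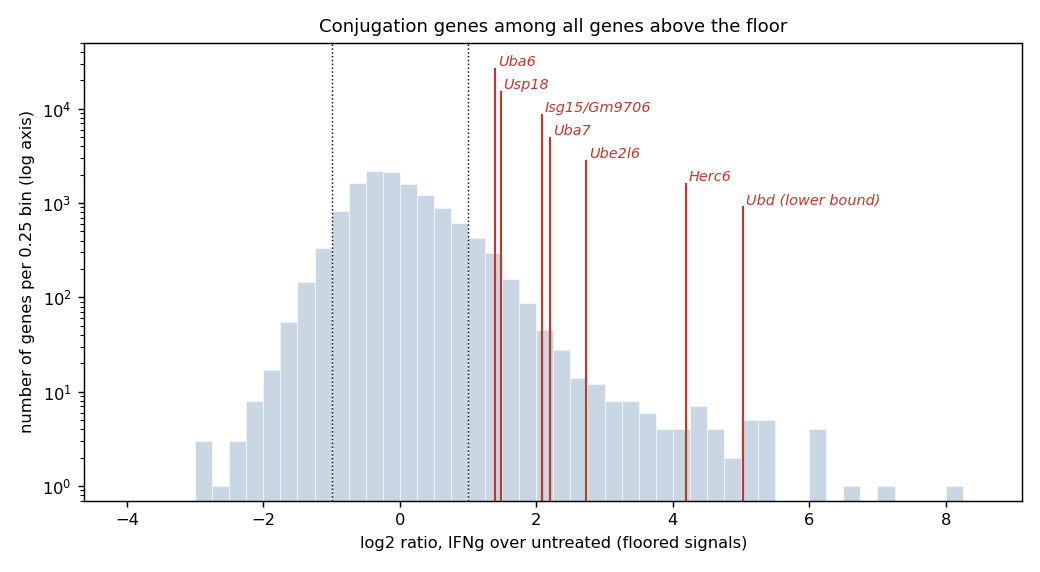
Histogram of log2 ratios (IFNg over untreated, floored signals) of the 12743 genes above the floor, with the number of genes per bin on a log axis and dotted lines at 2-fold. Red lines mark the 6 genes and the probe set of Isg15 and Gm9706, from 1.40 for Uba6 to at least 5.03 for Ubd, all to the right of the upper dotted line.

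The genes nearest in log2 ratio over the 2 arrays are given for 4 members, among genes that cleared the floor on each array and with gene models and clone names skipped. For the probe set of Isg15 and Gm9706 they were the ubiquitin ligase gene Rnf31 (log2 ratio 2.08) and the exonuclease gene Xrn1 (2.09). For Ube2l6 they were the RNA sensor gene Tlr3 (2.73) and the antibody receptor and ligase gene Trim21 (2.71), and for Usp18 Cacybp (1.48) and Ascc3 (1.47). Nearest to Herc6 stood the class II chain gene H2-Ab1 (4.24) and the chemokine gene Ccl5 (4.30). A likeness over 2 arrays is a likeness of 1 ratio.

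Other partners of the ISG15 and FAT10 systems were mostly within 2-fold. Of 22 further ligases, E2 enzymes, proteases, receptors, binding proteins and targets, 20 were above the floor. Of these, 3 were at least 2-fold higher, beside 8.82% of all genes. The other 17 lay within 2-fold and none was 2-fold lower, beside 4.48% of all genes. With probe sets averaged, 1 of the 20 was 2-fold higher, beside 6.41% of all genes. The median log2 ratio of the 20 was -0.053. With quantile or 75th-percentile scaling 2 of them, Hdac6 and the integrin gene Itgb2, passed 2-fold lower. Arih1, a ligase that can attach ISG15, had signals of 160.6 and 432.3 (2.69-fold), but its probe sets reached down to a log2 ratio of 0.36 and averaged 0.80. Eif2ak2, the antiviral kinase PKR and an ISG15 target, had 40.8 and 186.6 (4.57-fold). Usp16, a protease reported to act on ISG15 among other modifiers, had 53.0 and 152.6 (2.88-fold), but its other probe set had a log2 ratio of -0.44.

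Trim25, a ubiquitin ligase that can also act as an ISG15 ligase, had 557.4 and 781.0 (log2 ratio 0.49). Ube2z, the E2 that carries FAT10 from Uba6, had 622.0 and 545.3 (log2 ratio -0.19). Hdac6, which transports FAT10-marked proteins, had 174.5 and 89.7 (log2 ratio -0.96). The autophagy receptor Sqstm1 had 4199.3 and 2967.6 (log2 ratio -0.50), although a dimmer probe set of it stood at 2.12, and Usp14 at -0.029 likewise had one at 1.37. Itgal, a chain of the leukocyte receptor to which free ISG15 binds, was under the floor on both arrays, at 1.3 and 1.8. The FAT10-binding gene Nub1 was not analysed here.

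The corresponding enzymes and modifiers of other ubiquitin-like systems were read in the same way. Of 6 other E1 genes above the floor, Nae1 (2.42-fold) and Uba3 (2.03-fold), which encode the subunits of the NEDD8 E1, passed 2-fold higher, and no E1 gene passed it lower. The shares of all genes, to be read beside this and the counts that follow, were 8.82% higher and 4.48% lower. Uba3, at the edge of the mark, lay under it with quantile or 75th-percentile scaling and with a pseudocount of 16 (log2 ratio 0.95). It also lay under it with probe sets averaged (0.76) and with its lowest probe set (0.57). Nedd8 itself, with signals of 1836.6 and 1213.6, had a log2 ratio of -0.60. Of 14 other modifier genes, among them Sumo3, Ufm1, Urm1 and the autophagy modifiers, none passed 2-fold in either direction by its brightest probe set, and their log2 ratios ran from -0.76 for Urm1 to 0.33 for Ubl3. Of 27 other E2 genes, none passed 2-fold by its brightest probe set, with a range from -0.82 for Ube2c to 0.77 for Ube2v2. Dimmer probe sets of Ube2b (1.51), Ube2d3 (1.42), Ube2g1 (1.13) and Ube2g2 (-1.13) did. The genes for ubiquitin and its E1 Uba1 were not analysed here.

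Of the 4 other HERC genes, Herc4 was 2.18-fold higher by its brightest probe set (92.4 and 201.2), and a further one stood at log2 0.34. Herc1 (log2 ratio 0.73), Herc2 (0.13) and Herc3 (-0.52) lay within 2-fold. The list of other USP protease genes is not the whole family. It leaves out Usp2, Usp5, Usp13, Usp14, Usp16 and Usp21, counted above as partners, of which only Usp16 passed 2-fold by its brightest probe set. Dimmer probe sets of Usp2 (log2 ratio -1.46) and Usp14 (1.37) passed it too, and the other one of Usp16 stood at -0.44. Of the 17 listed genes above the floor, 6 were at least 2-fold higher and 2 were 2-fold lower, beside 8.82% and 4.48% of all genes. Their median log2 ratio was 0.76. The number higher was 3 with probe sets averaged, 3 with the floor of 86.6 and 1 with the lowest probe set of each gene. By brightest probe sets, Usp15 (3.59-fold), Usp1 (3.56-fold), Usp47 (3.28-fold) and Usp25 (3.21-fold) had higher folds than Usp18, Usp9x (2.43-fold) and Usp12 (2.18-fold) lower ones. Each was closer to Usp18 in log2 ratio than the SD of 0.44 among probe sets of a gene, so this order is not settled. With probe sets averaged, Usp15 (log2 ratio 0.49) and Usp25 (1.10) lay below Usp18 (1.48), Usp1 (1.48) beside it and Usp47 (1.71) above it. The other probe sets of Usp15 reached down to a log2 ratio of -0.40, while the 3 of Usp47 agreed, from 1.66 to 1.77. Usp19 (2.43-fold) and Usp20 (2.27-fold) were lower with IFNg by their brightest probe sets. Usp19 lay within 2-fold with probe sets averaged (log2 ratio -0.57) and without those of shared sequence or transcripts (-0.19), and with the floor of 86.6 Usp20 had only a bound (at most -0.72) that does not reach 2-fold.

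**Figure D3:**
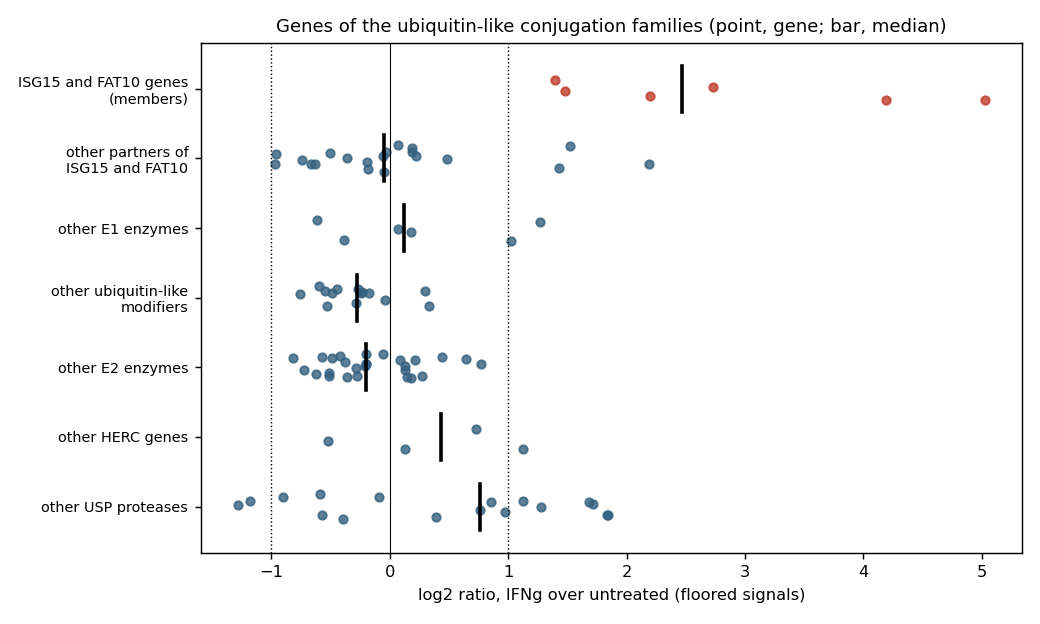
Log2 ratios (IFNg over untreated, floored signals) of genes above the floor, 1 point per gene, by family, with black bars at the medians and dotted lines at 2-fold. The 6 members lie from 1.40 to 5.03, Isg15 not included, while the 14 other modifier genes and the 27 other E2 genes, by their brightest probe sets, all lie between the dotted lines.

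Interferon signalling genes that act upstream were read beside the members. Of 15 above the floor, 7 passed 2-fold higher, beside 8.82% of all genes. None passed it lower, beside 4.48% of all genes, although Ifngr2 did so with 75th-percentile scaling. Irf1, a transcription factor that IFNg induces, had signals of 319.1 and 3391.1 (10.6-fold), and Irf8 had 32.5 and 987.7 (30.4-fold). Stat2, a subunit of the factor that binds the response element after type I interferon, had 134.4 and 385.9 (2.87-fold), and Irf9, another subunit, had 276.9 and 241.3 (log2 ratio -0.20). The others past 2-fold were Jak2 (5.31-fold), Irf7 (2.98-fold), Jak1 (2.81-fold, with a dim probe set at log2 -0.060) and Irf2 (2.55-fold). Ifnb1, the interferon beta gene, had signals of 17.2 and 21.2, on either side of the floor.

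Markers of the cells were measured on the same arrays. Their counts are to be read beside the shares of all genes, 8.82% at least 2-fold higher and 4.48% 2-fold lower. Of 12 RPE markers 9 were above the floor, including Otx2 (410.9 and 388.5), Tyr (986.1 and 605.7) and Krt18 (1390.4 and 2445.9), while Rpe65 (5.0 and 1.1), Best1 (4.5 and 9.2) and Dct (17.1 and 10.1) were under it on both arrays. Ttr, Tyrp1 and Rlbp1 were 2-fold lower with IFNg, but Tyrp1 (log2 ratio -0.87) and Rlbp1 (-0.80) were not with a pseudocount of 16, and with the floor of 86.6, under which Tyrp1 and Rlbp1 could not be tested, none was. A further Tyrp1 probe set stood at 0.33. Of 7 leukocyte markers 5 were above it, and their signals summed over all 7 to 466.2 without and 245.6 with IFNg. Ptprc, the pan-leukocyte gene, had 20.8 and 7.0, and Itgam (2.1 and 5.0) and Cd3e (3.6 and 13.1) were under the floor. The 4 fibroblast markers were bright, with sums of 38869.8 and 32958.7, and the 3 endothelial markers dim, with sums of 96.0 and 67.3. Of the leukocyte markers, Csf1r (202.8 and 77.5, 2.62-fold) and Fcer1g (46.0 and 10.6, at least 2.25-fold) were 2-fold lower with IFNg. For Csf1r that rests on its brightest probe set. Its 3 probe sets ran from a log2 ratio of -1.39 to -0.28, and their mean of -0.74 lay within 2-fold. Cd68 (139.6 and 87.6, log2 ratio -0.67) and Adgre1 (51.3 and 44.8, -0.20) cleared the floor on both arrays and lay within 2-fold. At this floor no leukocyte, fibroblast or endothelial marker was 2-fold higher with IFNg.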

How the data were processed

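The authors deposited 1 intensity per probe set and array, not log-transformed, between 0.1 and 14895.6 for 45101 probe sets. A mean trimmed by 2% at each end was 100.0 on both arrays. Per the labels' protocols, total RNA was amplified, labelled with biotin and hybridised, 1 array per culture. How signals were summarised and background-corrected is not given in the sources used here. The 64 control probe sets were left out and the arrays brought to equal trimmed means, by factors of 1.00008 and 0.999924. Signals under 20.4 were raised to it and log2 was taken. Where 1 array was at this floor the ratio is a bound. The platform annotation, which can be old, named the genes. Of the probe sets, 34945 name 1 gene, 932 several and 9160 none, and only the first were used, apart from the one of Isg15 and Gm9706. The members and lists were chosen with earlier results of these data known. Named genes were all members, list genes past 2-fold, those closest in role, and the 2 nearest ratios for Isg15, Ube2l6, Usp18 and Herc6, gene models and clone names skipped. Those for Ubd are left out, since bounds against 1 floor only order IFNg signals. Other list genes named within 2-fold were chosen after their values were seen. Promoters are RefSeq's for GRCm38.p6. With 1 array per group no test was made, and precision is limited by the number of arrays. Alternatives covered scaling, floor, pseudocount, probe-set choice and threshold. The tools were numpy 2.4.6 and pandas 2.3.3 under Python 3.11.15, with statsmodels 0.14.6 for loess, scipy 1.17.1 for quantile ranks and matplotlib 3.10.9 for figures.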

Additional observations from a re-analysis of the deposited data

How the results depend on the processing

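The 6 genes gave 60 log2 ratios under the alternatives, all above 0 and 57 of them at least 1. The exceptions were Uba6 with the floor raised to the 75th percentile (0.82) and, with the lowest probe set of each gene, an alternative chosen after seeing the data, Uba6 (0.26) and Uba7 (0.28). The median of the 6 was 1.84 with that floor and 1.83 with the lowest probe sets. The number at least 2-fold higher was 5 and 4 under these, and 4 passed 3-fold. Counting the probe set of Isg15 and Gm9706 for Isg15, also chosen after seeing the data, gave 7 of 7. Of the other ISG15 and FAT10 partners, 1 passed 2-fold with probe sets averaged, 1 passed 3-fold and 0 passed with the lowest probe sets. The number of them 2-fold lower, 0 as reported, was between 0 and 3 under the settings at 2-fold. Usp16 turned to -0.44 without probe sets of shared sequence or transcripts and with the lowest probe sets, where Usp15 (-0.40) and Jak1 (-0.0596) turned too. Among all genes, 1124 were higher and 571 lower at 2-fold, 2258 and 2059 with the floor lowered to the 25th percentile, 574 and 163 with it raised to the 75th. No paired analysis was possible because each group has 1 array. Signals near the floor hold an unknown share of background, which limits the ratios of Ubd, Ube2l6, Herc6 and Uba6.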
